A study of Danio rerio with 96 samples.

Results

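The 100 features described here are those of a zebrafish targeted panel that had higher read counts in the libraries extracted in December than in those extracted in November, both in samples of 10 embryos (pool10) and in samples of 20 embryos (pool20). They are 100 of the 3183 rows of the count table. A row was eligible if its mean count over the 96 libraries was at least 50 and below 5000 and if its spread among single embryos was between 0.45 and 1, as a standard deviation (SD) of log2 CPM (read counts divided by the library total and multiplied by a fixed constant) after the means of each batch and of samples 1 to 4 and 5 to 8 were subtracted. These limits left 781 rows. For each, the December mean of log2 CPM minus the November mean was taken in pool10 and in pool20, and the 100 rows with the largest smaller value were kept out of 104 in which both differences were above 0. Neither genes nor probes are named in the deposited table. Each feature is therefore called by its row number, starting at 1, and its gene, pathway, cell type and probe sequence are not given.

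All 864 embryos were vehicle controls. They were whole zebrafish embryos kept from 3 to 4 hours post fertilization until 120 hours in 0.1% dimethyl sulfoxide (DMSO), a solvent used to carry test chemicals, and no sample got another chemical. Each of the 12 extraction batches held 8 libraries of 1 pool size. In pool10, exposure of batch 3 began on 13 December and its RNA was extracted on 18 December, whereas exposure of batches 1 and 2 began on 2 November, with extraction on 23 and 24 November. In pool20 all 3 batches shared the exposure that began on 4 November, and batch 3 was extracted on 15 December against 23 and 24 November for batches 1 and 2. Single embryos (pool1) and pools of 5 (pool5) were all exposed and extracted in December: exposure began on 12 December for batches 1 and 2 of pool1 and all 3 batches of pool5, with extraction on 17 December, and on 13 December for pool1 batch 3, with extraction on 18 December. The word December therefore names the extraction month. In pool10 the exposure, the extraction date and the batch cannot be told apart, and in pool20 the extraction date and the batch cannot. The interval from the end of exposure to extraction was 0 days in pool10 batch 3 and 36 days in pool20 batch 3, against 14 to 17 days in the 4 November batches.

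TempO-Seq, the assay used, anneals pairs of detector oligonucleotides to RNA, ligates the pairs that sit side by side and counts the ligated products by sequencing, so a count belongs to a short probe target and not to a whole transcript. A surrogate panel samples selected genes of the transcriptome. At the end of this exposure a zebrafish is a free-swimming larva with working heart, gut and liver that is using up its yolk, and a whole-body extract mixes the RNA of all its tissues. In such an extract, fewer cells of a type and less RNA per cell cannot be told apart.

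Library totals ran from 3336312 to 6441627 counts with a median of 4498706. A count of 0 allows up to 3 counts, which is 0.899 CPM in the smallest library and 0.466 CPM in the largest, for counting error only. Of the 9600 member values 1 was 0. The December and November batches also differed in composition. The mean scaling factor of the trimmed mean of M-values (TMM) was 0.844 to 0.981 in the 8 December batches, against 1.14 to 1.32 in the 4 November batches. The mean number of features with at least 5 counts was 2579 to 2985 in the December batches and 3051 to 3101 in the November batches, and the 10 most abundant features took 27.4% to 29.97% of counts in December batches and 24.1% to 27.1% in November batches. The part of these shifts in the member values was not tested. CPM values below are scaled to the library total, and the log2 fold changes come from edgeR with TMM scaling unless another scaling is named.

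The members' December minus November differences, which chose them, ranged from 0.018 to 1.98 log2 units in pool10 with a median of 0.63, and from 0.025 to 2.57 in pool20 with a median of 0.34. The other 681 features within the limits had median differences of -0.93 in pool10 and -0.37 in pool20. The difference was larger in pool10 for 66 members and larger in pool20 for 34. Both differences were at least 1 in 9 members and at least 0.5 in 25, while the smaller of the pair was below 0.1 in 19. The lower limit fell close to 0. Features 2651 and 1257, ranked 99 and 100, had smaller differences of 0.019 and 0.018, and features 2903 and 725, the first outside, had 0.015 and 0.0049. By mean count the members ran from 52.04 to 3148 with a median of 234; features 2294 and 2138 had the highest mean counts, and features 809 and 3121 the lowest.

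**Figure D1:**
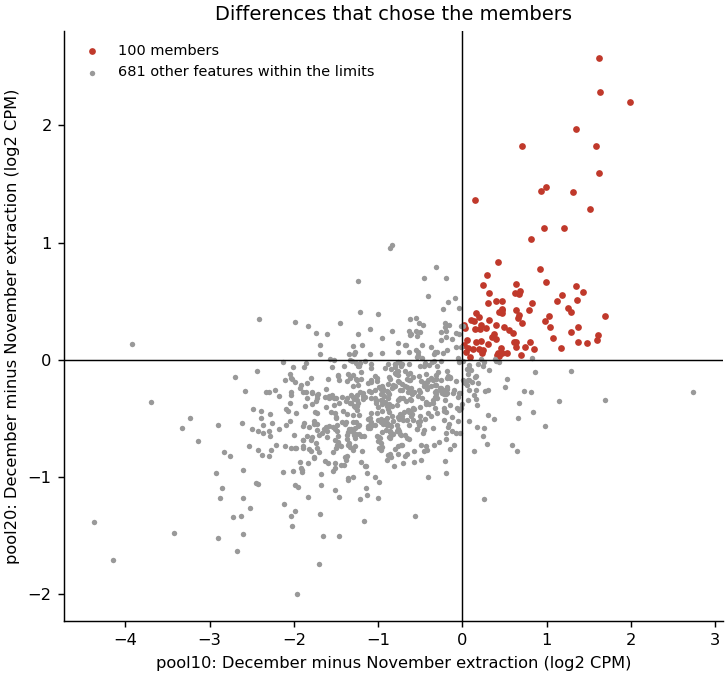
Each point is a feature within the count and spread limits, with its December minus November difference in pool10 on the x axis and in pool20 on the y axis, both in log2 CPM scaled to library totals. Members fill the corner where both differences are above 0, with pool10 values up to 1.98 and pool20 values up to 2.57, and most other features lie below 0 on both axes.

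The 10 members with the largest smaller difference were features 2972, 2294, 622, 2716, 985, 82, 2197, 1658, 1061 and 1878. Because the rule used these libraries, their December and November values are a description. Feature 2716 had 219 CPM at the lowest, 251 at the median and 284 at the highest in the 8 pool10 December libraries, against 45.4, 81.7 and 110 CPM in the 16 pool10 November libraries. In pool20 it had 237, 254 and 277 CPM in December and 56.7, 84.7 and 101 CPM in November. The December and November libraries did not overlap in either pool, and the December values of both pools lay in nearly the same range.

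Feature 2294 had 683, 1115 and 1519 CPM (lowest, median, highest) in pool10 December libraries and 139, 385 and 1016 CPM in pool10 November libraries. In pool20 it had 837, 1695 and 2242 CPM in December and 134, 287 and 1163 CPM in November. Its November libraries spread widely and their highest values reached into the December range in both pools. Feature 2972 had 22.9, 45.2 and 64.2 CPM in pool10 December libraries and 2.71, 9.21 and 37 CPM in pool10 November libraries, and 12.7, 47.4 and 70.3 CPM in pool20 December libraries and 3.5, 8.38 and 27.7 CPM in pool20 November libraries. It had the largest smaller difference of all members, yet its groups overlapped in both pools. Feature 622 had 41.8, 76.3 and 103 CPM in December and 6.29, 25.8 and 89.7 CPM in November in pool10, and 51.1, 130 and 206 CPM in December and 8.33, 14.9 and 89.1 CPM in November in pool20. Its November highs also passed the lowest December library in both pools.

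Feature 985 separated the months in both pools, with 27.3, 40.2 and 51.4 CPM in December and 7.06, 13.8 and 21.4 CPM in November in pool10, and 40.4, 53.4 and 64.8 CPM in December and 8.39, 14.7 and 23.1 CPM in November in pool20. Feature 1061 did so as well, with 70.3, 95.7 and 103 CPM in December and 27.6, 38.1 and 66 CPM in November in pool10, and 87.2, 105 and 119 CPM in December and 29.3, 49.3 and 65.2 CPM in November in pool20. A further member without overlap in either pool, feature 2418, was singled out after its values were seen: it had 530, 591 and 674 CPM in December and 191, 370 and 437 CPM in November in pool10, and 731, 780 and 892 CPM in December and 292, 395 and 524 CPM in November in pool20. The remaining leading members overlapped in at least 1 pool. Features 82, 1658 and 1878 separated in 1 pool each: feature 82 had 42.7, 64.4 and 97.4 CPM in December and 11.5, 17 and 26.1 CPM in November in pool20, feature 1878 had 119, 152 and 193 CPM in December and 26.7, 51.5 and 101 CPM in November in pool20, and feature 1658 had 25, 30.8 and 39.3 CPM in December and 4.54, 10.3 and 17.7 CPM in November in pool10.

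Every December library exceeded every November library for 22 of the 100 members in pool10, beside 4.83% of all 3045 features, and for 10 members in pool20, beside 1.97% of all 3039 features. Both pools shared 4 members: features 2716, 985, 1061 and 2418. With TMM scaling 67 members did not overlap in pool10 and 18 in pool20, beside 15.8% and 5.99% of all features, and 16 in both. The share of all features without overlap in both pools was not computed under either scaling. The direction of the rule's contrast stayed the same under both scalings, but its size did not. edgeR's quasi-likelihood test at an adjusted p of 0.05 called all 100 members higher in pool10 (36.4% of all features were called higher) and 98 higher in pool20 (28.2% of all). With library totals in place of TMM it called 73 in pool10 and 63 in pool20, and 0 lower in either. The members' median log2 fold change was 1.34 with TMM and 0.59 with library totals in pool10, and 0.60 and 0.33 in pool20. The median of all features was -0.10 with TMM and -0.85 with library totals in pool10, and -0.04 and -0.31 in pool20. With TMM 41.8% of all features were called lower in pool10 and 31.9% in pool20. With library totals 13.5% were called higher and 71.7% lower in pool10, and 12.0% higher and 56.5% lower in pool20. These values belong to the contrast that chose the members and support nothing about them.

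The libraries of pool1 and pool5 entered the rule through the spread limits of pool1 and the mean count, and not through the month. Averaged over the 100 members, the level per library was 5.56 ± 0.22 log2 CPM in pool10 batch 1 and 5.54 ± 0.13 in pool20 batch 1 on 23 November (SD, n = 8 each, as for every batch here), and 5.40 ± 0.19 in pool10 batch 2 and 5.47 ± 0.19 in pool20 batch 2 on 24 November. It was 6.01 ± 0.12 in pool20 batch 3 on 15 December. On 17 December it was 5.52 ± 0.40 and 5.94 ± 0.30 in pool1 batches 1 and 2, and 5.58 ± 0.49, 5.81 ± 0.27 and 6.15 ± 0.10 in pool5 batches 1 to 3. On 18 December it was 5.89 ± 0.23 in pool1 batch 3 and 6.19 ± 0.07 in pool10 batch 3. The means of pool1 batch 1 and pool5 batch 1 joined 2 separate sets of libraries. Samples 5 to 8 averaged 5.19 (4.83 to 5.54) and samples 1 to 4 averaged 5.85 (5.76 to 5.91) in pool1 batch 1, and samples 5 to 8 averaged 5.22 (4.56 to 5.62) and samples 1 to 4 averaged 5.93 (5.85 to 6.00) in pool5 batch 1. In both batches samples 5 to 8 lay below all of samples 1 to 4. The same held in 2 November batches that the rule used, with a smaller gap between the means. Samples 5 to 8 had 5.26 to 5.44 and samples 1 to 4 had 5.62 to 5.83 in pool10 batch 1. In pool20 batch 2 they had 5.24 to 5.38 and 5.46 to 5.72. The November libraries reached up to 5.83, in pool10 batch 1. With TMM scaling all 8 December batches ranked above all 4 November batches, the lowest being pool1 batch 1 at 5.55 and the highest November batch pool20 batch 1 at 5.28. This order depended on the scaling: with library totals pool1 batch 1, at 5.52, was below pool10 batch 1 and pool20 batch 1 of November. The rule chose members with low values in these November libraries, so their low rank is in part set by the rule.

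**Figure D2:**
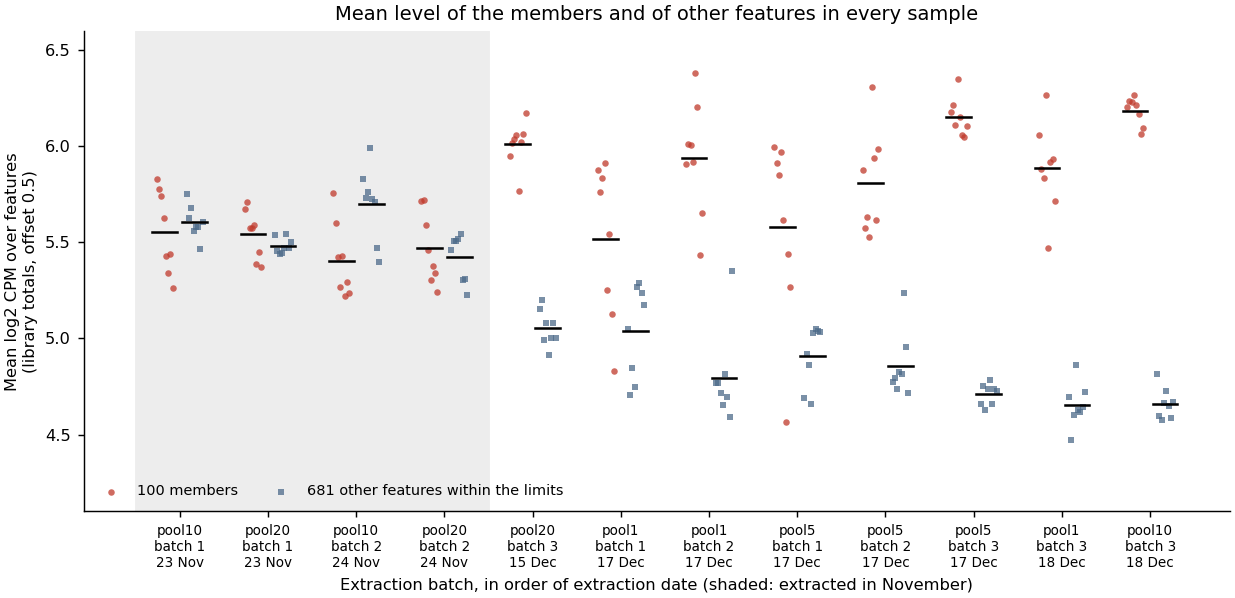
Mean log2 CPM over the 100 members and over the other 681 features within the limits, scaled to library totals, with 1 point per library, the 12 batches in order of extraction and black lines at the batch means. Members average 5.40 to 5.56 in the November batches and 5.52 to 6.19 in the December batches, and in pool1 batch 1 and pool5 batch 1 samples 5 to 8 (4.56 to 5.62) lie below samples 1 to 4 (5.76 to 6.00). Samples 5 to 8 also lie below samples 1 to 4 in pool10 batch 1 and pool20 batch 2.

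Member by member, the batch mean was above all 4 November batch means for 39 members in pool1 batch 1, 64 in pool1 batch 2, 45 in pool5 batch 1, 55 in pool5 batch 2, 80 in pool5 batch 3 and 64 in pool1 batch 3. Among the 2198 features that had mean counts of 50 or more, the same held for 17.7%, 19.4%, 11.6%, 14.4%, 18.9% and 15.7%, in that order of batches. A batch mean above all 4 November means in all 6 pool1 and pool5 batches was found for 19 members and for 4 of the 681 other features within the limits. Those 681 are the features that the rule left out, so the gap between 19 and 4 is in part set by the rule. The share over all features was not computed for all 6 batches together. The November libraries are the ones that the rule used, so low November values of the members enter these counts. In pool10 batch 3 and pool20 batch 3, which the rule used, the counts were 85 and 69, beside 18.4% and 14% of all features.

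The leading members differed in how their level varied among the pool1 and pool5 batches. Feature 2716 had 75.5, 170 and 301 CPM (lowest, median, highest) in pool1 batch 1, 102, 269 and 428 in batch 2 and 149, 334 and 497 in batch 3. In pool5 it had 43.2, 184 and 252 CPM in batch 1, 145, 189 and 304 in batch 2 and 193, 250 and 271 in batch 3. All 6 of these medians were above its highest November library of 110 CPM. Feature 2294 had medians of 300, 382 and 977 CPM in pool1 batches 1 to 3 and 294, 295 and 867 CPM in pool5 batches 1 to 3, so that 4 of its 6 medians lay between its November medians of 385 CPM in pool10 and 287 CPM in pool20. Feature 2972 had medians of 6.34, 10.6 and 26.3 CPM in pool1 and 8.56, 8.06 and 32.3 CPM in pool5, again with the third batch of each pool size highest. Feature 1658 had a different order in pool1, with medians of 18.9, 19.1 and 10.9 CPM in batches 1 to 3.

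**Figure D3:**
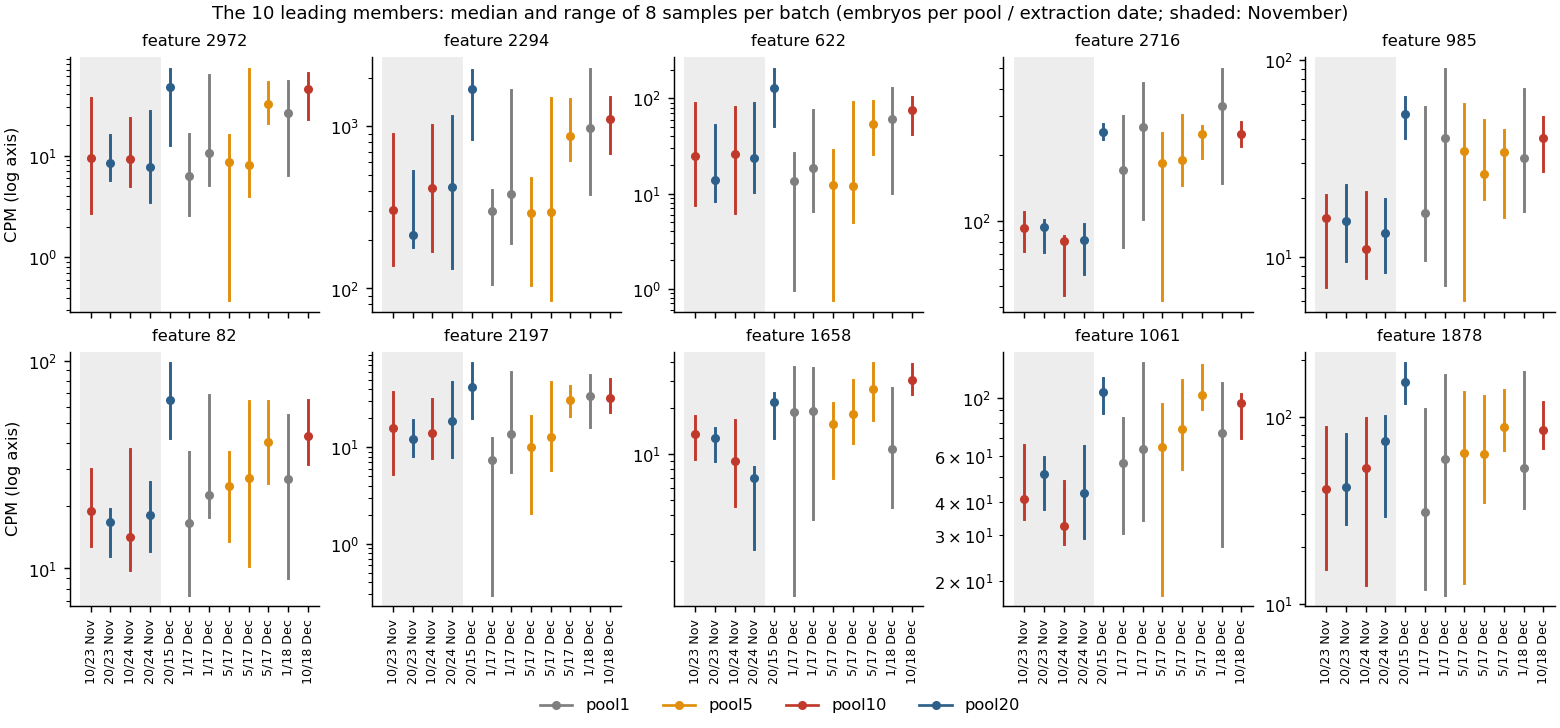
CPM scaled to library totals on a log axis for the 10 members with the largest smaller difference, with 1 panel per feature and the 12 batches in order of extraction; points are medians and lines the range of 8 libraries. Feature 2716 is above its highest November library of 110 CPM in all pool10 and pool20 December libraries, and feature 2294 ranges from 134 to 1163 CPM in the pool20 November batches and from 837 to 2242 CPM in the December batch.

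Both November extraction days entered the rule with equal weight, and the comparison between them was not used by it. Low values on either day did enter the rule through the November means. How far the rule set the day changes of the members was not tested. In pool10, 35 members fell and 8 rose in the libraries of 24 November relative to those of 23 November, beside 26.9% and 25.3% of all features (edgeR, 8 against 8 libraries, adjusted over all 3086 features tested). The members' median log2 fold change was -0.30, and that of all features was 0.02. In pool20, 19 members fell and 12 rose, beside 17.8% and 19.5% of all features, with medians of -0.06 for members and 0.04 for all features. The share of members that fell there was near that of all features, and the share that rose was below it. Of the members called in pool10 60.5%, and of those called in pool20 83.9%, were called in both: 8 rose and 18 fell in both pools, and none changed in opposite directions. In either direction, 52.2% of all features were called in pool10 and 37.4% in pool20. The overlap of calls over all features was not computed, so it is not shown to be particular to the members. The extraction day and the batch cannot be told apart here. Scaled to library totals, 27 members fell and 12 rose in pool10, beside 17.9% of all features called lower and 34.997% called higher. In pool20, 18 fell and 10 rose, beside 18.2% and 16.7% of all features. Without samples 5 to 8 of batch 1, 38 members fell and 2 rose in pool10, beside 17.4% and 12.9% of all features, and 20 fell and 5 rose in pool20, beside 13.0% and 11.5%.

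Feature 831 had the smallest adjusted p of the members in both pools. It had 4.32, 8.9 and 16.3 CPM (lowest, median, highest) on 24 November and 21.5, 32.8 and 42 CPM on 23 November in pool10, and 5.83, 10.2 and 13.2 CPM on 24 November and 29.5, 31.9 and 43 CPM on 23 November in pool20. The 2 days did not overlap in either pool. Its log2 fold change was -1.86 ± 0.18 (SE) in pool10 with an adjusted p of 3.0e-10 and -1.72 ± 0.18 in pool20 with an adjusted p of 3.1e-09 by edgeR. In December it had a median of 39.7 CPM in pool10 and 24.6 CPM in pool20, so that its November libraries of 23 November reached the December level and those of 24 November did not. Feature 1855 fell by 1.00 ± 0.13 in pool10 and by 0.97 ± 0.13 in pool20 on the log2 scale, with 29.8, 49.7 and 72 CPM on 24 November against 77.4, 91.4 and 105 CPM on 23 November in pool10. Feature 216 fell by 0.92 in pool10 and 0.50 in pool20, feature 1642 by 0.65 and 0.59, and feature 2696 by 1.03 and 1.05, all with adjusted p of at most 5.3e-04 by edgeR.

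Among the members that rose, feature 1257 had 93.5, 105 and 144 CPM on 24 November and 56.3, 62.6 and 70.1 CPM on 23 November in pool10, and 87.5, 96 and 108 CPM on 24 November and 57.3, 60.7 and 75.7 CPM on 23 November in pool20. The days did not overlap in either pool, and the log2 fold changes were 0.70 ± 0.096 and 0.63 ± 0.096 (SE), with adjusted p of 3.2e-07 and 3.6e-06 by edgeR. In pool10 all of its libraries of 24 November were above its December median of 85.2 CPM. Features 2822, 507, 937, 416 and 2653 rose in both pools, with log2 fold changes of 0.36 and 0.25, 0.70 and 0.70, 0.48 and 0.62, 0.30 and 0.56, and 0.77 and 1.14 in pool10 and pool20. Feature 2687 rose in pool20 by 0.86 ± 0.24, and in pool10 its value was 0.28 ± 0.24 with an adjusted p of 0.32 by edgeR. Without samples 5 to 8 of batch 1, features 2822, 507 and 937 had log2 fold changes of 0.29, 0.61 and 0.53 in pool10 and feature 2687 had 0.62 in pool20, none of them called, with adjusted p of 0.066 to 0.081 by edgeR.

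**Figure D4:**
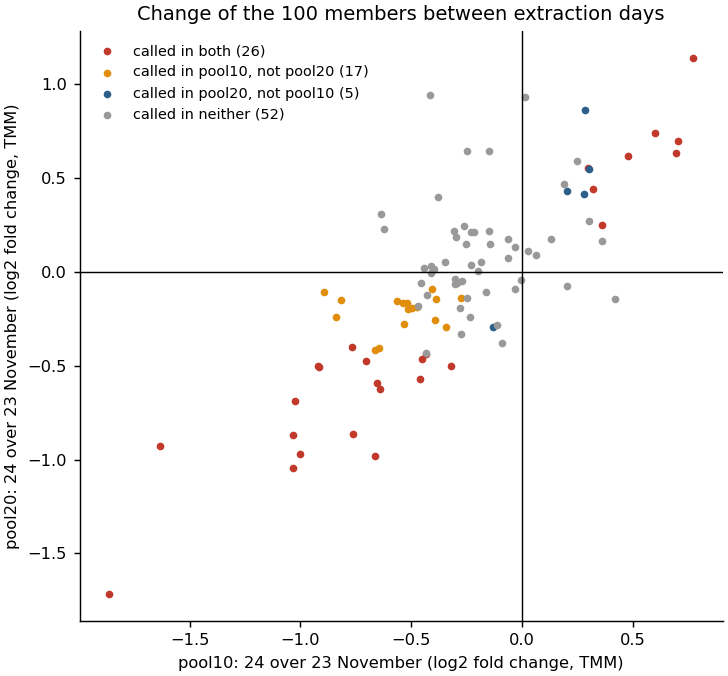
Log2 fold change of 24 over 23 November with TMM scaling for each of the 100 members, in pool10 on the x axis and in pool20 on the y axis, coloured by the pools in which edgeR called the member at an adjusted p of 0.05. The 26 members called in both pools all lie in the quadrants of equal sign, with feature 831 lowest at -1.86 and -1.72.

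The difference of the day change between pool20 and pool10 was tested as an interaction term over the 32 November libraries. edgeR called 0 members, beside 0.0648% of all features. At an unadjusted p under 0.05 there were 13 of the 100 members and 268 of all 3086 features. DESeq2 called 1 member, beside 0.0648% of all features. The smallest adjusted p among members was 0.089, for feature 2477, and the members' fitted differences ran from -0.56 to 1.36 log2 units with a median of 0.24.

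Among the same 32 libraries, 19 members were higher in pool20 than in pool10 and 0 were lower, beside 13% of all features called higher and 13.6% called lower (edgeR, the mean of both days in pool20 over the mean of both days in pool10). The members' median log2 fold change was 0.18, with all features at -0.01, and 85 members had positive values. This count rested on the scaling: with library totals 4 members were higher and 1 lower, the members' median was 0.01, and 2.50% and 34.5% of all features were higher and lower. The pools were exposed 2 days apart, from 4 and from 2 November, so that pool size, exposure and batch cannot be told apart. The November means of both pools also entered the rule, and how far the rule set the difference between the pools was not tested. The share of all features with positive values was not computed. Libraries served as replicates here, so the p-values and SE measure the spread within batches and not between them. Feature 2477 had 208, 240 and 282 CPM in pool20 and 124, 210 and 323 CPM in pool10 (lowest, median, highest of 16 libraries each), with a log2 fold change of 0.41 ± 0.075 (SE) and an adjusted p of 2.7e-04 by edgeR. The pools overlapped, and the pool10 libraries spread on both sides of the pool20 range. Features 429, 1599 and 1772 had log2 fold changes of 0.32, 0.41 and 0.45, and feature 1599 had 0.24 with library totals, with an adjusted p of 0.082 by edgeR.

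Samples 1 to 4 and 5 to 8 of a batch share pool size, exposure and extraction date. The labels give the numbers but do not say what a number stands for. The split is the one that the spread limit of the rule uses, and samples 5 to 8 of batch 1 stood apart in several comparisons here. It was known from earlier results of these data, and only the batches numbered 1 were tested. With library totals, samples 5 to 8 minus samples 1 to 4 in the member mean was -0.31 log2 CPM in pool20 batch 2 and -0.22 in pool10 batch 2. The other features within the limits had -0.15 and -0.25 there. Members had -0.25 in pool1 batch 3, -0.18 in pool20 batch 1 and 0.31 in pool5 batch 2, the only batch above 0. In pool1 batch 1, 26 members were lower in samples 5 to 8 than in samples 1 to 4 and 2 were higher, beside 10.4% and 11.6% of all 2571 features (edgeR, 4 against 4 libraries). The members' median log2 fold change was -0.82, against 0.27 for the other 681 features within the limits and 0.05 for all features. In pool5 batch 1, 7 members were lower and 0 higher, beside 0.563% and 1.73% of all features, with a median of -0.70 for members and 0.22 for the others. Here the count depended on the fit: 1 member was lower with DESeq2's size factors in edgeR, 39 with DESeq2 and 32 without sample 6, beside 0.0751%, 7.21% and 6.77% of all features. In pool10 batch 1, 19 members were lower and 1 higher, beside 5.77% and 4.6% of all features, with a median of -0.17. In pool20 batch 1, 0 members were called, beside 0% of all features, and the median was -0.14. In that batch 21 members had an unadjusted p under 0.05 with edgeR, beside 252 of all 2976 features. DESeq2 called 3 members there, beside 0.235% of all features.

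With library totals, the share of all features called higher and lower was 14.9% and 7.27% in pool1 batch 1 and 1.50% and 7.01% in pool10 batch 1, and 22 and 19 members were lower. Fitted values were below 0 in all 4 of these batches for 55 of the 100 members, and for 19.2% of the 2520 features tested in all 4. Of the members lower in pool1 batch 1 30.8%, and of those lower in pool10 batch 1 42.1%, were called in both: features 236, 318, 562, 1697, 1944, 2034, 2279 and 2294. The same overlap over all features was not computed. Samples 5 to 8 of batch 1 in pool10 and pool20 are in the November means that chose the members, so low values there entered the rule. Without them, 90 of the 100 members would have been chosen. How far the rule set the falls in these 2 batches was not tested.

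Feature 2294 had 151, 245, 106 and 153 CPM in samples 5 to 8 of pool1 batch 1 and 365, 355, 367 and 407 CPM in samples 1 to 4. It had 156, 106, 127 and 114 CPM in samples 5 to 8 and 483, 443, 474 and 431 CPM in samples 1 to 4 of pool5 batch 1, and 163, 139, 196 and 141 CPM in samples 5 to 8 and 633, 894, 651 and 414 CPM in samples 1 to 4 of pool10 batch 1. In pool20 batch 1 it had 194, 207, 205 and 181 CPM in samples 5 to 8 and 530, 428, 223 and 273 CPM in samples 1 to 4. Samples 5 to 8 lay below all of samples 1 to 4 in each of the 4 batches, at a level between 106 and 245 CPM whatever the pool size. The log2 fold changes were -1.36 ± 0.24, -1.93 ± 0.19, -1.92 ± 0.18 and -0.87 ± 0.17 (SE) for pool sizes 1, 5, 10 and 20, with adjusted p of 0.00325, 0.0020, 1.6e-05 and 0.067 by edgeR.

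Feature 562 had 64.4, 68.5, 55 and 68.6 CPM in samples 5 to 8 and 124, 107, 133 and 150 CPM in samples 1 to 4 of pool1 batch 1. In pool10 batch 1 it had 91.2, 71.2, 107 and 73.7 CPM in samples 5 to 8 and 136, 153, 156 and 160 CPM in samples 1 to 4. The sets of 4 samples did not overlap in either batch, and the log2 fold changes were -1.16 ± 0.20 and -0.73 ± 0.14 (SE). Feature 2197 had 5.52, 8.31, 5.22 and 5.54 CPM in samples 5 to 8 and 23, 36.7, 26 and 27.6 CPM in samples 1 to 4 of pool10 batch 1, a log2 fold change of -2.10 ± 0.24. In pool1 batch 1 the same feature had 6.09, 7.49, 6.33 and 0.3 CPM in samples 5 to 8 and 11.4, 7.24, 12.5 and 9.7 CPM in samples 1 to 4, where the sets overlapped and the adjusted p was 0.34 by edgeR. The value of 0.3 CPM is below the limit that a count of 0 allows in any library.

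Further members were called in 1 or more of these batches. Features 2033 and 2274 fell by 1.82 and 1.91 on the log2 scale in pool1 batch 1, features 622 and 2336 by 2.33 and 0.98 in pool10 batch 1, and features 1061 and 1878 by 1.38 and 1.92 in pool5 batch 1. Feature 2831 was one of the members that went the other way, with 148, 98.8, 120 and 119 CPM in samples 5 to 8 and 41.6, 30.9, 79.6 and 15.8 CPM in samples 1 to 4 of pool1 batch 1 and a log2 fold change of 1.38 ± 0.40 (SE). Feature 691 rose by 0.68 ± 0.20 in the same batch and feature 1305 by 0.39 ± 0.11 in pool10 batch 1.

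**Figure D5:**
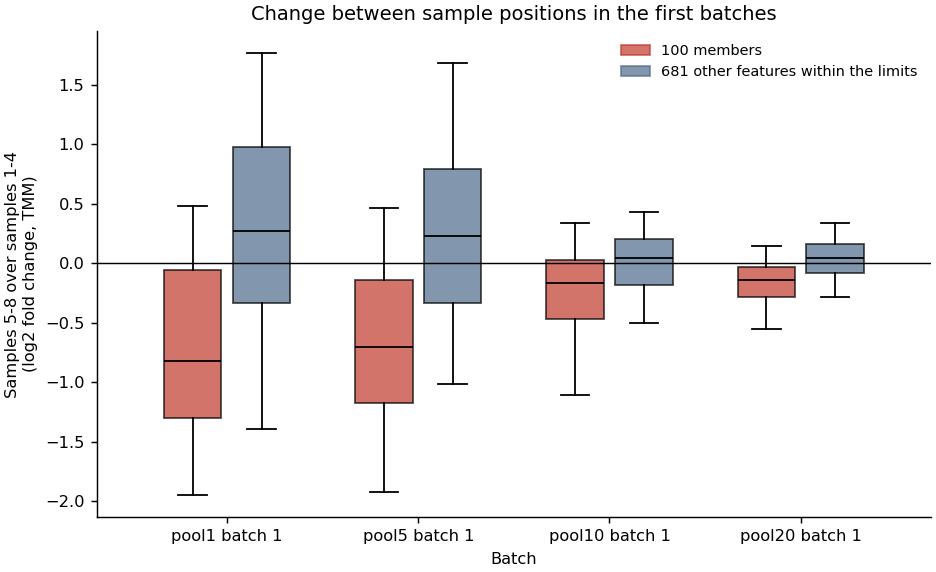
Log2 fold change of samples 5 to 8 over samples 1 to 4 with TMM scaling in batch 1 of pool1, pool5, pool10 and pool20, for the 100 members and for the other features within the limits. Boxes span the quartiles with a line at the median, and whiskers reach the 5th and 95th percentiles of features; more extreme features are not drawn. The members' medians are -0.82, -0.70, -0.17 and -0.14, and those of the other features are 0.27, 0.22, 0.04 and 0.04.

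Single embryos were also compared by exposure. In pool1 batch 3, exposed from 13 December, 14 members were higher and 4 lower than in the 16 libraries of batches 1 and 2, exposed from 12 December, beside 4.23% and 4.46% of all features (edgeR, adjusted over 2692 features). The members' median log2 fold change was 0.31, with all features at 0.01. The exposure, the extraction day and the batch cannot be told apart. With libraries as replicates, the p-values and SE of this comparison measure the spread within batches and not between them. Without samples 5 to 8 of batch 1, 1 member was higher and 1 lower, beside 1.45% and 0.884% of all features, and the members' median was 0.13. With library totals 11 members were higher and 6 lower, beside 2.67% and 8.73% of all features.

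Feature 2294 had 382 CPM at the lowest, 977 at the median and 2272 at the highest in batch 3, against 106, 300 and 407 CPM in batch 1 and 191, 382 and 1674 CPM in batch 2. The batches overlapped, with a log2 fold change of 1.62 ± 0.38 (SE) and an adjusted p of 0.013 by edgeR, and without samples 5 to 8 of batch 1 the value was 1.34 with an adjusted p of 0.071. Feature 2477 had 164, 362 and 1460 CPM in batch 3, against 57.2, 206 and 264 CPM in batch 1 and 171, 245 and 297 CPM in batch 2, a log2 fold change of 1.53 ± 0.30 with an adjusted p of 0.0052. Features 3175 and 1642 had log2 fold changes of 1.23 and 0.79, and without samples 5 to 8 of batch 1 they had 1.14 and 0.78, both with an adjusted p of 0.058 by edgeR. Of the members that fell, feature 3152 had 18, 30.3 and 39.2 CPM in batch 3, against 57.4, 86.3 and 129 CPM in batch 1 and 20.3, 54 and 97.7 CPM in batch 2, and fell by 1.08 ± 0.21. Features 831, 824 and 452 fell by 1.38, 0.92 and 0.96, and without samples 5 to 8 of batch 1 their values were -1.37, -1.04 and -0.75, with adjusted p of 0.070, 0.058 and 0.17 by edgeR. Feature 1642 had 0.62 with library totals and feature 452 had -0.97 without sample 8 of batch 2, with adjusted p of 0.053 and 0.052.

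The 3 batches of pool5 shared exposure and extraction date. edgeR's F test over the batches called 26 members, beside 14.2% of all 2733 features. With TMM scaling the level of all 26 was highest in batch 3, and it was lowest in batch 1 in 24 and in batch 2 in 2. By the same scaling, batch 3 was highest in 79 of all 100 members. The order of the batches over all features was not computed. The larger change from batch 1 was a rise in all 26. Over all features, 5.42% were called with such a rise and 8.78% with a fall. Scaled to library totals, the members averaged 5.22 log2 CPM in samples 5 to 8 of batch 1 and 5.93 in its samples 1 to 4. The mean of batch 2 was 5.81, between these values. Without sample 6 of batch 1 the F test called 27 members, beside 14.9% of all features. It was not repeated without samples 5 to 8 of batch 1, so their part in the calls was not tested. With library totals 17 members were called, beside 14.8% of all features, a share near that of the members. Feature 3175 had 47, 73.6 and 151 CPM (lowest, median, highest) in batch 3, 17.1, 27.6 and 117 CPM in batch 2 and 17.4, 28.6 and 49.1 CPM in batch 1, with an adjusted p of 0.011 by edgeR over 8 libraries a batch. Features 32, 684 and 1658 followed, with log2 fold changes of batch 3 over batch 1 of 0.48, 0.79 and 0.94.

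Pool size itself was compared in the exposure that pool5 and pool1 shared, from 12 December, on the sums of 3 pool5 and 2 pool1 batches. edgeR called 0 members and 0 of all 3084 features (0%), and DESeq2 called 0 members, beside 0.259% of all features. With edgeR 4 members had an unadjusted p under 0.05, beside 174 of all features. The members' log2 fold changes of pool5 over pool1 ran from -1.05 to 0.87 with a median of 0.12, and 61 were positive. This direction was not kept when batches were left out: the median was -0.07 with 41 positive without pool1 batch 1, and -0.09 with 38 positive without pool5 batch 3, and it was 0.34 without pool1 batch 2. The adjusted p of members began at 0.82.

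Within batches the members did not form a single tightly linked group. Over the 24 single-embryo libraries, after the means of batches and of their sets of 4 samples were subtracted, the median Pearson correlation over the 4950 pairs of members was 0.11, and that over pairs of the other features within the limits was 0.055. These medians describe libraries that share depth and scaling, and carry no test. In pool5 they were 0.22 for members and 0.066 for others, and 0.15 and 0.077 without sample 6 of batch 1. In pool10 they were 0.10 and 0.11, and in pool20 0.11 and 0.082. The values for the other features depended on the scaling: with TMM the medians were 0.12 for members and 0.0081 for others in pool10, 0.13 and 0.0049 in pool20, 0.20 and 0.019 in pool5, and 0.10 and 0.013 in pool1. Feature 236 had the highest median correlation with the other members among single embryos, 0.34, followed by features 1658, 2033 and 1061 at 0.32, 0.30 and 0.29. Features 1657, 416, 2035 and 1753 had the lowest, from -0.10 to -0.17.

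A few pairs stood out above that level, and were picked by their correlation. Features 258 and 1842 had r = 0.90 in pool1 and 0.83 in pool5 (n = 24 libraries each), and 0.56 in pool10 and 0.36 in pool20. Feature 1714 joined them, with r = 0.86 to feature 1842 and 0.83 to feature 258 in pool1. Features 1944 and 2274 had r = 0.79 among single embryos, 0.89 in pools of 5, 0.91 in pools of 10 and 0.61 in pools of 20, a pair that stayed linked at every pool size. Other strong pairs did not. Features 294 and 32 had 0.81 in pool1 but -0.25, -0.65 and -0.38 in pool5, pool10 and pool20. Features 2601 and 620 had 0.83 in pool1 and -0.06 in pool5. The lowest value in pool1 was -0.73, for features 1657 and 81, which had 0.31 in pool5. Of members in neighbouring rows, features 2034 and 2033 had r = 0.54 in pool1 and 0.86 in pool5, and features 1658 and 1657 had -0.28 and 0.38. Whether neighbouring rows are probes of related genes is not given in the table.

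Within the sets of 4 samples of a batch, the spread of the members between libraries fell with pool size as it did for the other features. The median SD within a batch was 0.65 log2 units for members in single embryos, 0.43 in pools of 5, 0.31 in pools of 10 and 0.25 in pools of 20, and 0.68, 0.43, 0.31 and 0.25 for the others, which was not tested. The spread limit of the rule used pool1. By the same measure the members' median SD within pool5 was 0.57 in batch 1, 0.39 in batch 2 and 0.23 in batch 3, and within pool10 it was 0.26, 0.41 and 0.21. Batch 3, the batch with the highest member level in both pool sizes, thus had the smallest spread within sets of 4 samples in each. In pool10 that high level was set by the rule. The spread per batch of the other features is not given here, so this is not shown to be particular to the members.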

How the data were processed

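Libraries of 96 samples were measured with TempO-Seq on a zebrafish surrogate panel. The authors deposited raw read counts per feature, whole numbers with no normalization. The submitters' processing notes list DESeq2 1.31.15, RSEM 1.3.3, STAR 2.7.10a, fastp 0.23.2 and bcl2fastq 2.20 without roles. How the counts were made, and on which genome build and annotation, is not given in the sources used here. All 96 columns were used.

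Levels were log2 CPM by library total with 0.5 counts added. edgeR 4.0.16 (R 4.3.3) gave the tests, by quasi-likelihood F after filterByExpr and TMM, adjusted by Benjamini-Hochberg over all features tested with a threshold of 0.05. The scripts were checked on simulated data. SE is the log2 fold change divided by the square root of F. pool5 and pool1 were compared on batch sums, other groups on single libraries. On single libraries the p-values and SE measure the spread within batches and not between them. Alternatives were DESeq2 1.42.0, its size factors, no filter, library totals, and libraries left out. Library totals as a scaling, TMM for overlaps between libraries, and leaving out single libraries were chosen after seeing the data.

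The members and lists were chosen with earlier results of these data known. Text names the 10 members with the largest smaller difference, the edge of the rule, up to 4 called members per direction with the smallest adjusted p in each tested comparison, the 4 highest and 4 lowest median correlations among single embryos, and the 2 most and 2 least abundant members. Nothing in the labels says that samples are separate dishes or clutches. The p-values then measure only the spread between these samples, and that may be technical.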

Additional observations from a re-analysis of the deposited data

Results flagged for a closer look

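Of 132 sets of 8 libraries, the 10 leading members and the mean of the members in each of the 12 batches, 8 held a library whose gap to the nearest of the others was large for the range of its batch; chance flags about 1 in 20 sets. In each it was the lowest library. On the log2 CPM scale with library totals, feature 2716 was at 5.51 in sample 4 of pool10 batch 2 (others 6.01 to 6.41), at 5.83 in sample 5 of pool20 batch 2 (others 6.25 to 6.59), at 5.44 in sample 6 of pool5 batch 1 (others 6.89 to 7.98) and at 7.60 in sample 5 of pool5 batch 3 (others 7.88 to 8.08). Feature 2197 was at -1.15 in sample 8 of pool1 batch 1 (others 2.64 to 3.66). Feature 1658 was at 1.33 in sample 2 of pool20 batch 2 (others 2.33 to 3.06) and at 3.69 in sample 1 of pool20 batch 3 (others 4.37 to 4.65). Feature 1061 was at 6.14 in sample 8 of pool10 batch 3 (others 6.54 to 6.69).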

How the results depend on the processing

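Recomputed under the alternatives, 81 counts and summary values kept their side of the threshold or stayed within 1.5 times, 12 moved further and 4 became called. Of the values of single features, 222 kept direction and side and 18 were no longer called. None of these reversed. With library totals, 63 members were higher in December in pool20, beside 12.0% of all features. With that scaling 5 members were called for pool20 against pool10. Of these 4 were higher and 1 lower, beside 2.50% and 34.5% of all features. Over the pool5 batches it gave 17 members, beside 14.8%, a share near that of the members. Without samples 5 to 8 of batch 1, 2 members were called in pool1 for 13 against 12 December, beside 2.33% of all features. With DESeq2, 1 member was called for the interaction, beside 0.0648% of all features. Between samples 5 to 8 and 1 to 4 of pool20 batch 1 it called 3, beside 0.235%. In pool5 batch 1, 39 members were lower in samples 5 to 8 with DESeq2, 1 with its size factors and 32 without sample 6, beside 7.21%, 0.0751% and 6.77%. For pool5 against pool1, single samples as replicates gave 6, near the share of 5.86% of all features, and leaving out each batch in turn gave 0 each time. With TMM, 67 and 18 members did not overlap in pool10 and pool20, beside 15.8% and 5.99% of all features, and 16 in both. The member level then spanned 1.42 over the batches in place of 0.78. With the pool1 spread taken after batch means alone, 62 of the members would have been chosen, and with TMM 78. The cause was not tested in any of these cases. Samples with the same number in different batches of a pool did not pair in most cases. In each pool the highest correlation was between batches 1 and 2, at 0.41, 0.48, 0.54 and 0.28 for pool sizes 1, 5, 10 and 20. The lowest of pool5, pool10 and pool20 were also between these batches, at -0.43, -0.27 and -0.22. Correlations passed 0.1 in 5 of 24 cases each for pool1 and pool5, and in 7 and 3 of 24 for pool10 and pool20. Between pool20 and pool10 on the same November day they passed it in 12 of 16 cases, with a median of 0.18, so not in every pair. For pool5 against pool1, on batch sums, a block could only be the batch number. With it 9 members were called, beside 4.70% of all features, with a member median of -0.07. That fit paired batches by number, left pool5 batch 3 without a partner and had very few sums to measure the spread. With the sample number as a block, 54 members were called for 24 against 23 November in pool10 (55.1% of all). The sample block gave 25 for pool20 against pool10 (29.6%) and 0 for the interaction in edgeR (0.0972%). For that interaction 19 members and 331 of all features had an unadjusted p under 0.05. The block gives a number the same effect on both November days. It therefore does not model pairs of pool20 and pool10 within a day, and no fit here did. Libraries of pool1, with the largest spread, limit what a comparison of single embryos can show.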

Other observations

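Feature 2138, next to feature 2294 in mean count, and features 809 and 3121, with the lowest mean counts, all overlapped between the months in both pools. Feature 2138 had 533, 603 and 801 CPM (lowest, median, highest) in pool10 December libraries and 235, 537 and 671 CPM in pool10 November libraries, and 558, 597 and 728 CPM in pool20 December libraries and 333, 531 and 754 CPM in pool20 November libraries. Its November libraries differed by day: in pool10 they had 235, 419 and 563 CPM on 24 November and 478, 633 and 671 CPM on 23 November, and in pool20 333, 428 and 516 CPM on 24 November and 546, 690 and 754 CPM on 23 November. The days overlapped in pool10 and not in pool20, and the median of 23 November was above the December median in both pools. Feature 3121 had 8.1, 13.2 and 14.8 CPM in December and 5.98, 11.3 and 26.6 CPM in November in pool10, and 6.15, 12.6 and 16.4 CPM in December and 5.57, 11.3 and 17.4 CPM in November in pool20. Feature 809 had 8.89, 15.2 and 26.5 CPM in December and 2.56, 8.13 and 16.4 CPM in November in pool10, and 7.19, 9.42 and 10.6 CPM in December and 2.83, 7.97 and 14 CPM in November in pool20.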
